A study of Homo sapiens with 4 samples.

Results

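The genes described here are the nuclear regulators that set how much mitochondrial machinery a cell builds: NRF1, GABPA, PPARGC1A, PPARGC1B, ESRRA, TFAM, TFB1M, TFB2M and POLRMT. They were taken by gene symbol from a table of read counts per gene. Of the 9 listed regulators, 8 had a row among the 24014 genes of the table. PPARGC1A had none, so its RNA level is not analysed here. The table lists 0 genes without a count in any of the 4 libraries. Whether that is why PPARGC1A is missing was not tested. The counts came from RNA-seq of SK-N-SH, an established human neuroblastoma cell line, in 4 libraries. In 2 libraries (AP1AR-DT_OE) the cells had been treated with a lentivirus carrying the long non-coding RNA AP1AR-DT, and in the other 2 (control) with the vector alone, per the treatment labels; the titles call the controls WT. The labels give no dose or time. The groups model forced expression in a tumour line. The study also examined NRF1 at the promoter of NEGR1, which encodes a neuronal adhesion molecule, and the question put to the counts here was whether NRF1 itself, or the pathway it serves, differed in RNA level when AP1AR-DT was supplied.

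NRF1, nuclear respiratory factor 1, is a DNA-binding activator whose sites lie close to the start of many genes for respiratory chain subunits and for the mitochondrial transcription apparatus. GABPA is the DNA-binding subunit of nuclear respiratory factor 2, an ETS factor with an overlapping set of targets, and it is a different protein from NFE2L2, which is also called NRF2. PPARGC1A and PPARGC1B are coactivators: they do not bind DNA themselves but are recruited by NRF1 and by the nuclear receptor ESRRA, and raise the output of both. The other 4 act inside the organelle. POLRMT is the RNA polymerase that transcribes mitochondrial DNA, TFAM bends and packages that DNA and helps the polymerase at its promoters, TFB2M opens the promoter for the polymerase, and TFB1M is a dimethyltransferase that modifies the ribosomal RNA of the small mitochondrial ribosome subunit. In neurons, NRF1 is also known for coupling the genes of energy supply with genes of excitatory synapses.

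Matches to the NRF1 motif were looked for in the promoters of the regulators. In the RefSeq promoter windows (GRCh38.p14, 250 bases before to 50 bases after the start), the core of the NRF1 motif, CGCNTGCGC on either strand, was found in 5 regulators: ESRRA, TFAM, TFB1M, TFB2M and POLRMT. It was in 7.52% of the 35116 promoters of that table. GABPA, PPARGC1B and PPARGC1A had no match, and NRF1 itself had no entry. The letters of the motifs were chosen with the promoters in view, so the count is a description, and a match is not evidence that the factor binds. The stretches that hold the match are shown because the motif is that of the gene that heads the group. Each is given on the strand of its gene, 5′ to 3′, up to the outermost annotated start, with the NRF1 core in capitals. For TFAM, where the core lies just inside that start, only the 30 bases around it are shown.
TFB2M (chr1:246566262-246566411, minus strand): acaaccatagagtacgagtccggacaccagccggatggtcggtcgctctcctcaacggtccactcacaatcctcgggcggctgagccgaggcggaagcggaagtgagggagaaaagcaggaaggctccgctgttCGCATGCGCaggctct
TFB1M (chr6:155314494-155314643, minus strand): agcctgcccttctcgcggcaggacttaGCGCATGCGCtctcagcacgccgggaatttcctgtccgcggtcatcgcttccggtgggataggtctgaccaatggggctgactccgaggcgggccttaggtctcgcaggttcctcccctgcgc
POLRMT (chr19:633538-633687, minus strand): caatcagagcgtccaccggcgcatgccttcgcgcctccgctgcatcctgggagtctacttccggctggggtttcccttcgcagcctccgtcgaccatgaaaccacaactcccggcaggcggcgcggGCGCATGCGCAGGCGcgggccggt
ESRRA (chr11:64305347-64305496, plus strand): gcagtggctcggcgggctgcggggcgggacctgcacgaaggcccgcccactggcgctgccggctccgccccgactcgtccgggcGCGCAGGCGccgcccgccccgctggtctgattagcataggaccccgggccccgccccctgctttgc
TFAM (chr10:58385337-58385366, plus strand): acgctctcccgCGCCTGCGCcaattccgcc
In TFB1M and POLRMT the capitals hold the palindrome GCGCATGCGC, so the core was matched there on both strands at overlapping positions, and POLRMT had one more match that overlaps these. Counted from the RefSeq start, the first base of the core lay at -16 in TFB2M, -62 in TFAM and -93 in ESRRA. The ETS motif of GABPA, CCGGAAG on either strand, was found in the promoters of GABPA, TFB1M and POLRMT (10.26% of all promoters), and the ESRRA motif TCAAGGTCA in none of the regulators (0.35% of all promoters).

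Before the regulators were compared, the libraries were checked. They held between 21988065 and 26184599 counts, and 1 pair of reads was worth about 4 counts. AP1AR-DT (listed as RP11-73K9.2) had 3 and 18 counts in control, against 680 and 1065 in AP1AR-DT_OE, as labelled (Log2FC = 6.63, SE = 0.64, DESeq2 adjusted p = 3.64e-21; edgeR quasi-likelihood adjusted p = 0.390, or 1.847e-06 when replicate number enters as a block). Markers of both states that SK-N-SH cultures are known to hold were present in every library, with 3937 to 4916 counts for the adrenergic factor PHOX2A and 81731 to 88046 for the mesenchymal filament VIM. By DESeq2, 33 of all 24014 genes passed an adjusted p of 0.05 and 196 an unadjusted one. Of the markers, 0 of 9 adrenergic and 0 of 10 mesenchymal genes passed the adjusted one by DESeq2 or by edgeR. Below an unadjusted 0.05 were 0 and 1 of them by either tool. That 1 was the mesenchymal factor PRRX1, at 2432 and 14724 counts in control, against 1131 and 2263 in AP1AR-DT_OE. Its Log2FC was -2.02 (DESeq2 adjusted p = 0.431). By DESeq2 it was called with a GC correction (Log2FC = -1.76, adjusted p = 0.00114), with the replicate block (Log2FC = -1.75, adjusted p = 1.098e-07, or 0.0176 by edgeR) and with both (Log2FC = -1.68). It was not called by DESeq2 with TMM factors (adjusted p = 0.298), with a count filter (0.336) or with counts divided by 4 (0.722), nor by edgeR without the block. With each library left out in turn its Log2FC was -2.71 without control 1, -0.66 without control 2, -1.66 without AP1AR-DT_OE 1 and -2.53 without AP1AR-DT_OE 2. The part of PRRX1 in the results below was not tested. The summed normalized counts of the mesenchymal markers ran from 155000 to 216200 in the controls and from 171100 to 212400 in AP1AR-DT_OE. Abundant genes carry that sum: VIM averaged 84130 and PRRX1 4404, so it could hardly show a shift in PRRX1. The sum of the adrenergic markers ran from 24890 to 31080 in the controls and from 27280 to 29850 in AP1AR-DT_OE. NEGR1 lay near the limit of detection, at 6 and 19 counts in control and 0 in either AP1AR-DT_OE library, which allows up to 12 counts there. In these bulk libraries, fewer cells of a type and less RNA per cell cannot be told apart. Nothing in the labels says that replicates 1 and 2 were separate cultures, so the p-values measure the spread between these libraries, which may be technical.

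None of the 8 regulators differed between AP1AR-DT_OE and control beyond the spread between libraries. By DESeq2, 0 of 8 were called at an adjusted p below 0.05, where 0.137% of all 24014 genes were called. Likewise 0 of 8 had an unadjusted p below 0.05, where 196 of all genes did. The edgeR test also called 0 of 8, and 0 of 8 had an unadjusted p below 0.05, where 112 of the 17027 genes it tested did. It called 0 of all those genes, so its count of 0 calls carries no information here. The same goes for its calls among the markers above and in the lists below. The smallest unadjusted p was 0.642 (TFB2M), and the DESeq2 adjusted p was 1 for each. In none of the 8 did the AP1AR-DT_OE libraries lie wholly above or below the controls, which 9.45% of the 13298 genes whose mean normalized count reached 50 did. The median Log2FC over the 8 was -0.02, against -0.03 over all genes tested, and 3 of the 8 were above 0. All 8 passed that minimum mean, so no regulator with a row was lost to it.

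**Figure D1:**
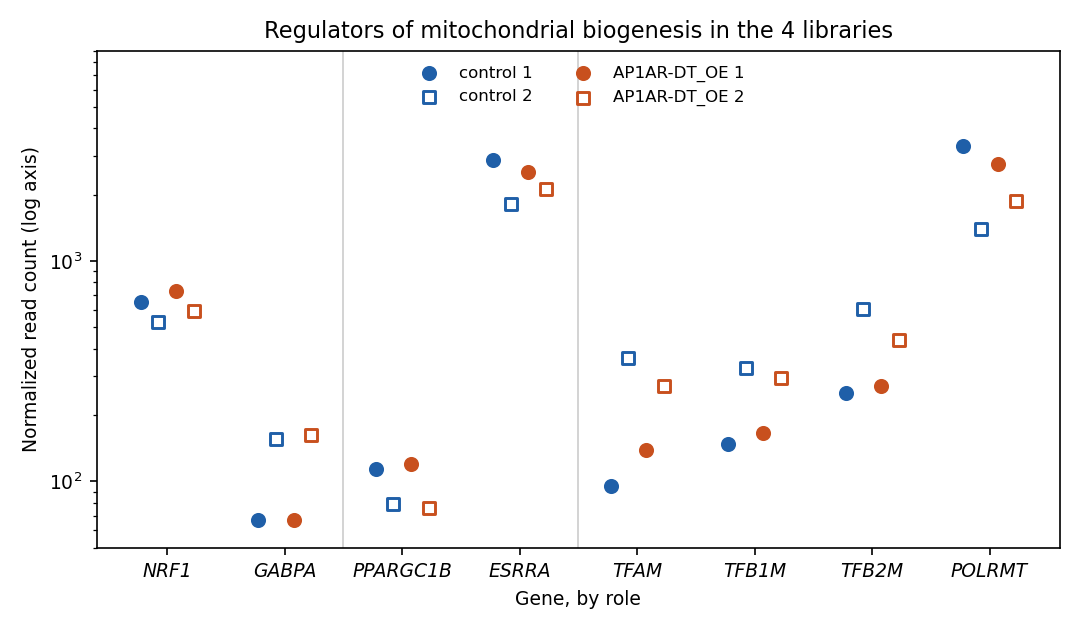
Normalized read count (log axis) of the 8 regulators in each library; blue marks control, orange AP1AR-DT_OE, filled circles replicate 1 and open squares replicate 2. Circles pair with circles and squares with squares: TFAM was at 95.7 and 139 in the replicates numbered 1 and at 364 and 270 in those numbered 2.

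NRF1 (ENSG00000106459; GRCh38, chromosome 7, 129611720 to 129757082) had 573 and 685 counts in control, against 665 and 597 in AP1AR-DT_OE. Divided by the size factor of each library, these were normalized counts of 653, 528, 729 and 593. The highest AP1AR-DT_OE library was above both controls and the lowest lay between them. AP1AR-DT_OE stood at 1.12-fold the control level with a 95% interval of 0.593 to 2.11 (Log2FC = 0.16, SE = 0.47, DESeq2 adjusted p = 1). The values allow folds across that interval, which is not a limit of detection. NRF1 was the 1 regulator with the same sign in both replicate numbers, at a log2 ratio of AP1AR-DT_OE over control of 0.16 within number 1 and 0.17 within number 2; without AP1AR-DT_OE 1 its Log2FC was -0.0003. GABPA (chromosome 21, 25734570 to 25772460), its counterpart among the DNA-binding factors, had 59 and 202 counts in control, against 61 and 164 in AP1AR-DT_OE. The libraries thus split by replicate number and not by group, with normalized counts of 67.2 and 66.9 in the replicates numbered 1 and of 156 and 163 in those numbered 2. Its Log2FC was 0.04 (SE = 0.72, adjusted p = 1), and the 95% interval of the fold was 0.389 to 2.72. The lowest value, 59 counts, stands for about 14.8 read pairs, with an exact Poisson 95% interval of 8.21 to 24.4 that covers counting error only. GABPA shares 692 exon bases with ATP5PF on the opposite strand; the strand used in counting is not stated, so reads of these genes cannot be told apart.

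Among the coactivators, PPARGC1B (chromosome 5, 149730298 to 149855022) had 100 and 103 counts in control, against 109 and 76 in AP1AR-DT_OE. Its normalized counts were 114 and 79.5 in control and 120 and 75.4 in AP1AR-DT_OE, so the replicates numbered 2 were the lower ones in both groups. The Log2FC was 0.01 (SE = 0.66, adjusted p = 1; fold 0.411 to 2.48). ESRRA (chromosome 11, 64305497 to 64316743), the nuclear receptor through which these coactivators drive respiratory genes, was among the most abundant regulators, with 2517 and 2361 counts in control and 2324 and 2135 in AP1AR-DT_OE. Both AP1AR-DT_OE libraries, at normalized counts of 2549 and 2119, lay between the controls at 2867 and 1821. Its Log2FC was -0.01 (SE = 0.46, adjusted p = 1; fold 0.534 to 1.86). ESRRA has 284 exon bases in common with TRMT112 on the opposite strand.

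The genes of the mitochondrial transcription machinery differed widely within groups. TFAM (chromosome 10, 58385345 to 58399220) had 84 and 472 counts in control, against 127 and 272 in AP1AR-DT_OE. In normalized counts, 95.7 and 364 in control enclosed 139 and 270 in AP1AR-DT_OE, and the controls differed from each other 3.81-fold. The log2 ratio of AP1AR-DT_OE over control stood at 0.54 within number 1 and at -0.43 within number 2. The pooled Log2FC was -0.17 (SE = 0.69, adjusted p = 1; fold 0.350 to 2.26). TFB1M (chromosome 6, 155256134 to 155314493) ran the same way, with 130 and 424 counts in control and 152 and 298 in AP1AR-DT_OE. Normalized, control 1 at 148 and AP1AR-DT_OE 1 at 167 were low, and control 2 at 327 and AP1AR-DT_OE 2 at 296 were high. The Log2FC was -0.04 (SE = 0.60, adjusted p = 1). TFB1M shares 1264 exon bases with TIAM2 on the opposite strand and 591 with a long non-coding RNA on its own strand (ENSG00000235381), so its counts are uncertain to that extent.

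TFB2M (chromosome 1, 246540561 to 246566261), the partner of POLRMT at the promoter, had 221 and 785 counts in control and 248 and 444 in AP1AR-DT_OE. Normalized counts of 272 and 441 in AP1AR-DT_OE fell inside the range of 252 to 606 spanned by the controls. Its Log2FC was the lowest of the 8, at -0.27 (SE = 0.57, adjusted p = 1; fold 0.380 to 1.81). Within number 1 the log2 ratio was 0.11, within number 2 it was -0.46. POLRMT (chromosome 19, 617221 to 633537) had 2930 and 1807 counts in control and 2520 and 1887 in AP1AR-DT_OE. Here the order was turned: the replicates numbered 1 were the higher, at normalized counts of 3337 and 2764 against 1394 and 1873. The Log2FC was -0.03 (SE = 0.52, adjusted p = 1; fold 0.481 to 1.999). The log2 ratio was -0.27 within number 1 and 0.43 within number 2.

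**Figure D2:**
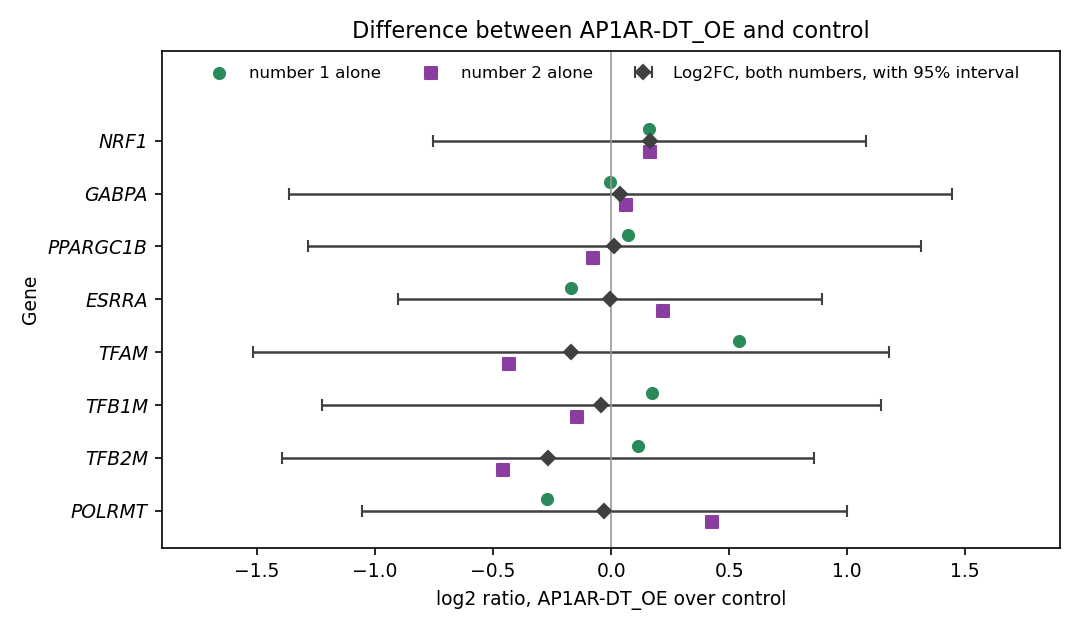
Log2 ratio of AP1AR-DT_OE over control for each regulator: diamonds are the DESeq2 Log2FC over all 4 libraries with its 95% interval, circles the ratio within replicate number 1 and squares within number 2 (1 library per group each, no test). Every interval covers 0, and in 7 of the 8 the circle and the square lie on opposite sides of 0.

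To set the regulators against one another, normalized counts were divided by the length of the longest transcript in kb. ESRRA was the highest at 1020 ± 201 normalized counts per kb (mean ± SD over the 4 libraries), followed by POLRMT at 621 ± 232 and TFB2M at 220 ± 92.7. NRF1 came next with 175 ± 24.0, above TFB1M at 83.8 ± 32.2 and TFAM at 43.2 ± 24.4. GABPA at 21.7 ± 10.2 and PPARGC1B at 9.19 ± 2.16 were the lowest. The ranges over the libraries did not overlap between POLRMT and TFB2M, between NRF1 and TFB1M, or between GABPA and PPARGC1B. The neighbours ESRRA and POLRMT, TFB1M and TFAM, and TFAM and GABPA held their order in 4 of 4 libraries although their ranges overlapped, and TFB2M was above NRF1 in 2 of 4 libraries, so that pair had no fixed order. NRF1 had the smallest SD relative to its mean of the 8, its values per kb running from 148 to 204.

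In all 8 regulators the replicates of a group differed more from each other than the groups did within either replicate number. Between the controls, replicate 2 was above replicate 1 by a log2 ratio of 1.93 for TFAM, 1.27 for TFB2M, 1.21 for GABPA and 1.14 for TFB1M, and below it by -1.26 for POLRMT and -0.65 for ESRRA. The same 4 genes were above and the same 4 below in AP1AR-DT_OE, where the ratios ran from -0.66 for PPARGC1B to 1.28 for GABPA. These ratios followed the base composition of the transcripts: the 4 genes that were higher in replicate 2 had a GC content of 36.0% to 42.5%, and the 4 that were lower 48.6% to 66.1%. Over the 8 regulators, Spearman's rho between GC content and the log2 ratio was -0.976 in control and -0.833 in AP1AR-DT_OE, as it was, less steeply, over 13231 genes (rho = -0.774) and 13234 genes (rho = -0.650). The ratio of AP1AR-DT_OE over control within a number also followed GC content, downward in number 1 (rho = -0.342 over genes and -0.690 over the regulators) and upward in number 2 (0.624 and 0.762). All points of a correlation share the same pair of libraries, so these are descriptions without a test.

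**Figure D3:**
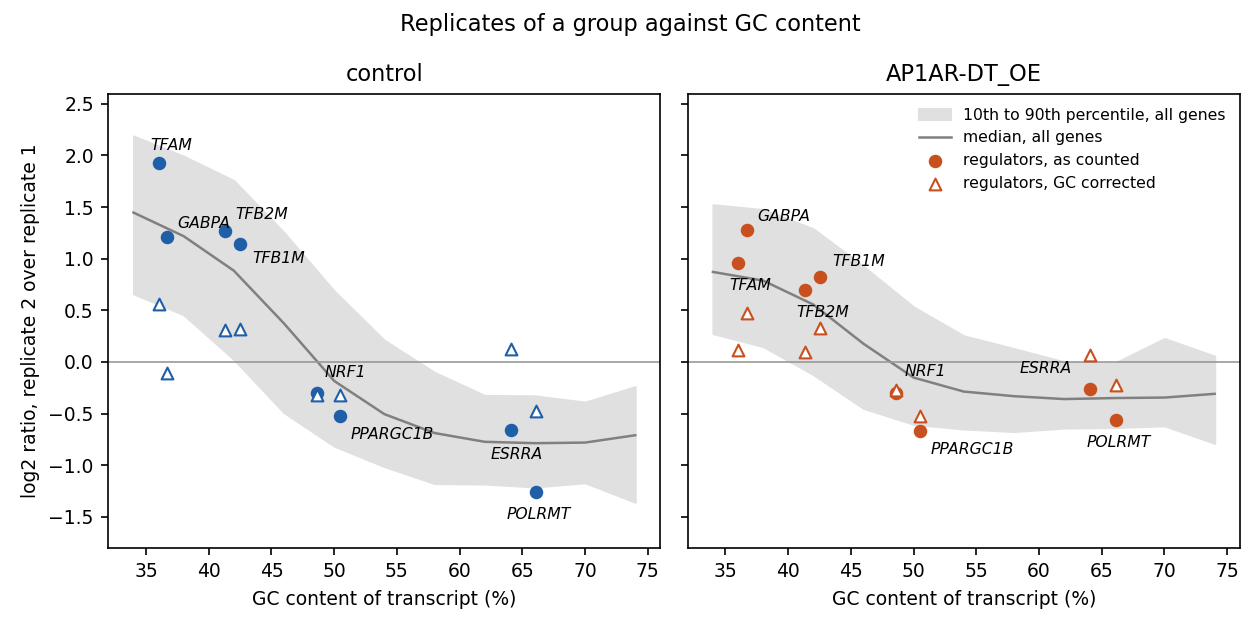
Log2 ratio of replicate 2 over replicate 1 against GC content of the longest transcript (%), in control (left) and AP1AR-DT_OE (right); filled circles are the regulators as counted, open triangles the same after a GC correction, the line the median and the grey band the 10th to 90th percentile of all genes in bins of GC content. The regulators run down with the genes, from TFAM at 1.93 to POLRMT at -1.26 in control, and the triangles lie closer to 0, except for NRF1 in control (-0.30 to -0.32).

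When the trend with GC content over all genes was taken out of each library, the replicates of a group came closer. The median absolute log2 ratio between replicates went from 1.18 to 0.317 over the regulators in control and from 0.680 to 0.245 in AP1AR-DT_OE, against 0.723 to 0.328 and 0.417 to 0.254 over all genes. Before the correction 7 of 8 regulators in control and 6 of 8 in AP1AR-DT_OE differed between replicates by more than 0.5 on the log2 scale, and afterwards 1 of 8 in each. A trend over the regulators remained, with Spearman's rho between GC content and the corrected ratio of -0.714 in control and -0.690 in AP1AR-DT_OE, where that over all genes was near 0 (-0.0105 and -0.0126). The corrected Log2FC between the groups was 0.15 (SE = 0.30) for NRF1, 0.10 (SE = 0.41) for TFAM, -0.12 (SE = 0.32) for TFB2M and -0.01 (SE = 0.29) for POLRMT, and 0 of 8 were called by DESeq2 on corrected values. NRF1, whose transcript is of middling GC content, hardly moved: its log2 ratio between replicates was -0.30 before and -0.32 after the correction in control.

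Of 6 ratios formed between regulators, 3 showed the same split over a range of at least 3.2-fold. The other 3 had a range of 1.24-fold to 1.37-fold. The level per kb of TFAM over that of POLRMT was 0.0215 and 0.196 in control, against 0.0378 and 0.108 in AP1AR-DT_OE, a 9.11-fold range that followed the replicate number and that was 2.04-fold after the GC correction. The same held for TFB2M over POLRMT, at 0.159 and 0.918 in control and 0.208 and 0.497 in AP1AR-DT_OE. By contrast TFB2M over TFB1M, a pair of related methyltransferase-fold proteins with similar GC content, was 2.67 and 2.91 in control and 2.56 and 2.34 in AP1AR-DT_OE. Its range was 1.24-fold, and both AP1AR-DT_OE values lay below both controls, also after the GC correction. This difference was not tested. The 6 ratios were not among the planned comparisons, and how many gene pairs at large would not overlap was not counted. GABPA over NRF1, the pair of nuclear respiratory factors, was 0.0703 and 0.201 in control and 0.0626 and 0.188 in AP1AR-DT_OE, and so differed by number and not by group. The ratio of NRF1 to PPARGC1B, its coactivator, was 16.97 and 19.7 in control and 18.1 and 23.3 in AP1AR-DT_OE, a range of 1.37-fold. Within that narrow range both replicates numbered 2 were above both numbered 1. For ESRRA over PPARGC1B the range was 1.32-fold, and 1.51-fold after the GC correction.

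The profile of NRF1 over the 4 libraries was compared with that of every gene, as the distance between log2(normalized count + 1) values centred on their mean. The nearest 3 of 13290 genes were FAM85A, RPSAP15 and MRPS16, at distances of 0.0146, 0.0153 and 0.0213. MRPS16 encodes a protein of the small mitochondrial ribosome subunit, and its normalized counts were 4582 and 3696 in control and 5194 and 4204 in AP1AR-DT_OE. RPSAP15 is a pseudogene by its symbol, and its reads can come from related copies. None of the regulators was close by this measure: 16.0% of genes were nearer to NRF1 than ESRRA was, 22.2% nearer than PPARGC1B, and 92.4% nearer than TFAM. With 4 libraries such distances describe these samples only.

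The genes around the regulators were read from 4 lists. By DESeq2, 0.137% of all 24014 genes were called and 196 had an unadjusted p below 0.05. Counts of 0 in lists of this size therefore say little. Of 20 cofactors and upstream partners of NRF1 and the coactivators, 18 had a row and 16 passed the minimum mean. None of them was called by DESeq2 or edgeR, and 0 had an unadjusted p below 0.05 by either. Their median Log2FC was -0.24 over the 18, against -0.03 over all genes; 7 of the 16 were lower and 0 higher in both replicate numbers, where 19.8% of the genes past the minimum mean were lower and 18.4% higher. In 4 of the 16, all lower in AP1AR-DT_OE, the groups did not overlap, where 9.45% of genes did not: these were YY1, NCOR1, PPARA and PPARG. On GC corrected values the count was 5 of 16 (GABPB1 higher, and CREB1, GABPB2, PPARA and YY1 lower), where 18.6% of genes did not overlap, and NCOR1 and PPARG overlapped. YY1, a zinc finger factor that works with the coactivator on mitochondrial genes, had the lowest value, with normalized counts of 2048 and 2881 in control and 1773 and 462 in AP1AR-DT_OE (adjusted p = 1, Log2FC = -1.14, SE = 0.59), with a Log2FC of -0.49 without AP1AR-DT_OE 2 and of -2.42 without AP1AR-DT_OE 1 (DESeq2 adjusted p = 0.0990). Its unadjusted p was 0.0548, and the 3 alternatives on all libraries that gave one below 0.05 left it uncalled (TMM factors 0.0464, GC correction 0.0412, edgeR with the replicate block 0.00746). The corepressor NCOR1 was at 864 and 736 in control and 578 and 643 in AP1AR-DT_OE, and the lipid receptor PPARA at 503 and 475 against 331 and 407. DYNLL1, a dynein light chain known to bind NRF1, was the highest of the list at a Log2FC of 0.06 (SE = 0.50).

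Genes that copy, transcribe and process mitochondrial DNA and RNA had a row in 24 of 24 cases. Of these 23 passed the minimum mean, 0 were called by either tool, 0 had an unadjusted p below 0.05, and the median Log2FC was 0.00 (-0.0033). In 1 of the 23 (RNASEH1) the groups did not overlap, where 9.45% of genes did not. On GC corrected values the count was 3 of 23 (ELAC2 and LRPPRC higher, MTERF lower), where 18.6% of genes did not overlap. The highest was KIAA0391, the nuclease subunit of mitochondrial RNase P, at a Log2FC of 2.39 (SE = 2.28). It had 10 and 156 counts in control and 9 and 685 in AP1AR-DT_OE. Without AP1AR-DT_OE 2 its Log2FC was -2.76. By DESeq2 its unadjusted p was 0.295. That p was below 0.05 with the replicate block (DESeq2 0.0177, edgeR 0.00743) and with the block and a GC correction (DESeq2 0.0275). None of these fits called it. The lowest, TEFM, an elongation factor of POLRMT, had 26 and 202 counts in control and 32 and 92 in AP1AR-DT_OE (Log2FC = -0.56, SE = 0.87), again split by replicate number. In MRPL12, a ribosomal protein that also binds POLRMT, control 2 was at 0 where the other libraries had 5411, 3422 and 4857 counts; it was singled out after its values were seen.

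Known targets of NRF1, among them cytochrome c, subunits of cytochrome c oxidase and genes of excitatory synapses, had a row in 22 of 23 cases. Again 0 of the 22 were called and 0 had an unadjusted p below 0.05 by DESeq2 or edgeR, with a median Log2FC of 0.00 (0.0038). Of the 20 that passed the minimum mean, 6 were higher and 3 lower in both replicate numbers, beside 18.4% and 19.8% of all genes past that mean. In 1 of the 20 (COX4I1) the groups did not overlap, where 9.45% of genes did not. On GC corrected values the count was 5 of 20 (COX4I1, COX6C, COX7C and TOMM34 higher, NLGN1 lower), where 18.6% of genes did not overlap. COX6C, a small subunit of cytochrome c oxidase, was the highest, with normalized counts of 53.5 and 128 in control and 93.2 and 152 in AP1AR-DT_OE (Log2FC = 0.43, SE = 0.69). NLGN1, a postsynaptic adhesion protein, was the lowest, with 52.4 and 84.9 in control and 31.8 and 61.5 in AP1AR-DT_OE (Log2FC = -0.56, SE = 0.79).

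The mRNAs of the mitochondrial genome, the product of POLRMT, TFAM and TFB2M, gave the same picture at far higher counts. All 13 had a row, 0 of 13 were called and 0 had an unadjusted p below 0.05 by DESeq2 or edgeR, and the Log2FC ran from -0.21 (MT-ND4L, SE = 0.46) to 0.07 (MT-CO3, SE = 0.43), with a median of -0.07. Summed, they gave normalized counts of 1492000 and 1063000 in control and 1429000 and 1066000 in AP1AR-DT_OE, and all 13 were lower in replicate 2 in both groups. With the GC correction their replicates lay farther apart, not closer: the median log2 ratio of replicate 2 over replicate 1 went from -0.49 to -1.15 in control and from -0.36 to -0.78 in AP1AR-DT_OE, and in 13 of 13 it was farther from 0 in both groups. Their groups overlapped in all 13, where 9.45% of genes past the minimum mean did not. POLRMT followed that order, while TFAM and TFB2M ran against it.

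**Figure D4:**
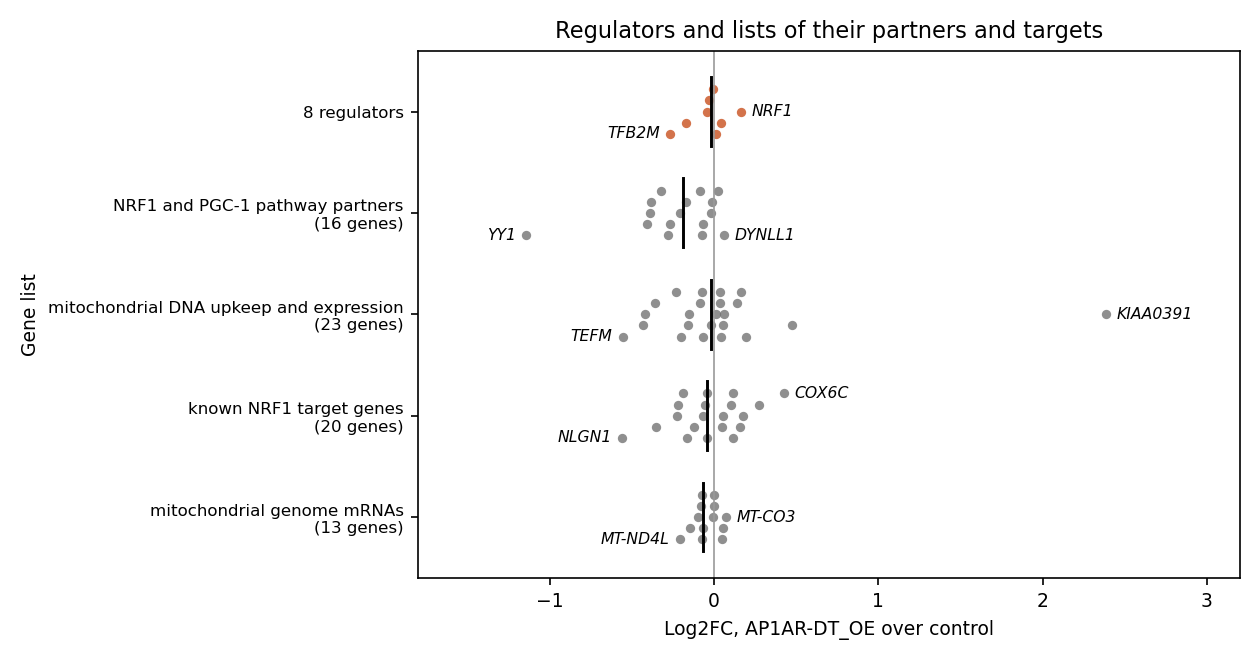
Log2FC of AP1AR-DT_OE over control for the 8 regulators (orange) and for the members of 4 lists whose mean normalized count reached 50 (grey); vertical strokes are medians, and the highest and lowest gene of each row is named. No point of the plot passed an adjusted p of 0.05, and the 2 farthest from 0, KIAA0391 and YY1, each rest on AP1AR-DT_OE 2.

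The genes whose names are mixed up with these factors were read as well. NFE2L1, also written NRF1 in the stress response literature, had a Log2FC of -0.03 (SE = 0.46), and NFE2L2, the antioxidant factor NRF2, one of -0.27 (SE = 0.55), both with a DESeq2 adjusted p of 1.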

How the data were processed

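RNA-seq was carried out on 4 SK-N-SH libraries, grouped and numbered by their titles; for AP1AR-DT_OE 2 the title was followed, since its genotype and treatment entries carry another version suffix of AP1AR-DT. Per the study's methods, the authors aligned reads with HISAT2 to hg19 and took counts per gene from StringTie, while the submitters' processing notes name TopHat2 2.0.4, HTSeq, Cuffdiff and edgeR 2.6.12. The deposited counts are whole numbers without normalization. Entries of 4 (3287) outnumber those of 3 (2136) and 5 (1509), so 1 read pair is worth about 4 counts; the limit for a count of 0 was taken as 3 pairs, or 12 counts. The table's coordinates are GRCh38. Its columns of the authors' own fold changes and p-values were not used.

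Members, lists and tests were chosen with earlier results of these data known. Counts of all 24014 genes were tested with the DESeq2 1.42.0 Wald test in R 4.3.3 (size factors by median of ratios, no covariate, Benjamini-Hochberg adjustment, two-sided); calls were made at an adjusted p below 0.05. Alternatives tried were edgeR 4.0.16 (quasi-likelihood test), TMM factors, a filter of 10 counts in 2 libraries, no independent filtering, the replicate number as a block, a GC correction (lowess, span 0.3), counts divided by 4, and each library left out in turn. GC content and length are those of the longest transcript in GENCODE 44 mapped to GRCh37, found for 23954 genes. Named beside the members were AP1AR-DT, NEGR1, NFE2L1, NFE2L2, the highest and lowest Log2FC of each pathway list among genes averaging 50 or more normalized counts, and the 3 profiles nearest to NRF1.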

Additional observations from a re-analysis of the deposited data

How the results depend on the processing

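None of the 8 regulators was called in any of the 104 fits made under alternative settings, of which 72 kept the direction of Log2FC and 32 turned it. The smallest unadjusted p among them was 0.103, for POLRMT without control 1. NRF1, GABPA and TFB2M kept their sign in every alternative that used all 4 libraries. Log2FC turned under the replicate block in PPARGC1B (-0.0020), ESRRA (0.025), TFAM (0.039), TFB1M (0.0091) and POLRMT (0.076), and under the edgeR test with that block in PPARGC1B (-0.0085), ESRRA (0.018), TFAM (0.027), TFB1M (0.0013) and POLRMT (0.070). It turned with the GC correction in PPARGC1B (-0.010), TFAM (0.10), TFB1M (0.064) and DYNLL1 (-0.017), and with the GC correction and the replicate block in PPARGC1B (-0.026), TFAM (0.13), TFB1M (0.066) and POLRMT (0.0042). These values are small beside their errors, and the cause was not tested.

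With each library left out in turn, the Log2FC ran from -0.0003 to 0.32 for NRF1, -0.76 to 0.79 for GABPA, -0.36 to 0.30 for PPARGC1B, -0.29 to 0.36 for ESRRA, -0.83 to 1.11 for TFAM, -0.53 to 0.65 for TFB1M, -0.77 to 0.51 for TFB2M and -0.52 to 0.73 for POLRMT. The sign turned without control 1 in GABPA, ESRRA and POLRMT, without control 2 in PPARGC1B, TFAM, TFB1M and TFB2M, without AP1AR-DT_OE 1 in NRF1, PPARGC1B, TFAM, TFB1M and TFB2M, and without AP1AR-DT_OE 2 in GABPA, ESRRA and POLRMT.

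Outside the regulators the same exercise gave -0.33 to 0.36 for NFE2L1, -0.67 to 0.28 for NFE2L2, -0.066 to 1.21 for COX6C, -0.34 to 0.63 for DYNLL1, -2.76 to 4.93 for KIAA0391, -0.091 to 0.25 for MT-CO3, -0.51 to 0.19 for MT-ND4L, -2.42 to -0.49 for YY1 and -1.42 to 1.11 for TEFM. The count of calls in the list of mitochondrial DNA upkeep and expression ran from 0 to 1, the 1 being MRPL12 without control 1, which left the control library that holds 0 counts of it; the other 3 lists stayed at 0.

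Of all genes tested, 33 were called, 0 by the edgeR test (112 below an unadjusted 0.05, against 196 by DESeq2), 55 with the GC correction, 60 with the GC correction and the block, 15 with counts divided by 4, and 45 to 90 with a library left out. The replicate block gave 37 calls with DESeq2, 16 of them among the 33, and 44 with edgeR, 24 of them among the 33. Deviations from the group means of same-numbered libraries correlated at 0.49 over 13298 genes, but the labels do not say what the numbers share and there are only 2 pairs, so the numbers were not taken as a pairing. The order of levels per kb was the same with the canonical transcript in place of the longest, an alternative chosen after seeing the data, as was the count of groups that did not overlap on GC corrected values. At 2 libraries per group, and with as few as 59 counts for a regulator, the depth and spread limit what can be seen.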

Other observations

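Some targets and partners of the regulators repeated the split by replicate number seen in TFAM. CYCS, cytochrome c and a textbook NRF1 target, had 302 and 1839 counts in control and 360 and 1120 in AP1AR-DT_OE, a log2 ratio of normalized counts between replicates of 2.04 in control (GC content 41.2%). TRMT10C, a subunit of mitochondrial RNase P, had 103 and 573 counts in control and 151 and 402 in AP1AR-DT_OE (1.91 in control, GC content 39.0%). PPRC1, a coactivator related to PPARGC1B, ran the other way with POLRMT, at 3948 and 2233 counts in control and 3049 and 2194 in AP1AR-DT_OE (-1.38 in control, GC content 56.7%). HCFC1, a cofactor of GABPA, was at 12973 and 7993 in control and 11045 and 7662 in AP1AR-DT_OE (-1.26 in control, GC content 61.5%). These 4 genes were chosen after their values were seen.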
